A study of Homo sapiens with 5 samples.

Results

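The NF-kB subunits, their inhibitors and the feedback genes of the pathway were followed in KMH2, an established Hodgkin lymphoma cell line of B cell origin. The members were chosen by name from the value table joined to the platform's annotation: NFKB1, NFKB2, RELA, RELB, NFKBIA, NFKBIE, TNFAIP3, BCL3, TRAF1 and BIRC3. Of these 10 genes, 8 had a probe set annotated to that gene alone, out of 7713 genes measured. BIRC3 was not analysed here. BCL3 shared its probe set's annotation with a microRNA gene and was not counted as measured. Each of the 8 had 1 such probe set.

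The cells were kept for 16 hours either with 30 uM LY294002, an inhibitor of phosphoinositide 3-kinase (PI3K) (2 arrays), or with DMSO, its solvent (3 arrays). The medium, RPMI1640 with 10% FCS and 1% pen/strep, was shared by both groups. The design text describes triplicates and 1 array excluded for high background. All arrays come from 1 cell line. The labels do not say whether replicates are separate cultures, so the p-values cover the spread among 5 arrays and perhaps no more than technical spread.

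NF-kB factors are dimers of the Rel proteins, which the genes NFKB1, NFKB2, RELA, RELB and REL encode. In the canonical pathway the dimers are held in the cytoplasm by inhibitors of the IkB family until the IkB kinase complex marks these for destruction. In the non-canonical pathway the kinase NIK, encoded by MAP3K14, triggers the processing of the NFKB2 precursor, which pairs with RELB. Several genes of the pathway are themselves targets of NF-kB, among them NFKBIA and TNFAIP3, whose products shut the signal down again. Constant NF-kB activity is a known feature of Hodgkin cells. KMH2 is known to carry defects in NFKBIA and TNFAIP3, and the arrays measured RNA and not functional protein.

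On the arrays, the largest differences among the members were those of NFKB2 and NFKBIA, at 1.67-fold and 1.68-fold with LY294002 relative to DMSO. TRAF1 and RELB stood 1.30-fold and 1.20-fold higher, NFKB1 1.10-fold higher, and NFKBIE was the 1 member with lower values on both LY294002 arrays. None of the 8 passed the threshold of the test, an adjusted p of 0.05 by limma with Benjamini-Hochberg adjustment over the whole table, where 0.908% of all genes passed, 0.609% higher and 0.298% lower with LY294002. At an unadjusted p under 0.05 there were 5 members, all of them higher with LY294002. Of all genes, 17.1% reached that level, 10.6% higher and 6.5% lower.

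Promoter sequences are shown because NF-kB dimers bind a short motif, and the promoters of several members hold it. The windows come from RefSeq (build GRCh38.p14) and run from 250 bases before to 50 bases after an annotated start, 5′ to 3′ on the strand of the gene. Of the 8 measured members, NFKB1, NFKB2, RELA, NFKBIA, TNFAIP3 and TRAF1 were matched by symbol, with 12 windows. They were searched on both strands for the NF-kB consensus, GGGRNWYYCC, where R is A or G, W is A or T, Y is C or T and N is any base. They were also searched for GGGNNTTTCC, called the stricter motif here because fewer windows hold it. It is not wholly contained in the consensus, as it allows any base in the place of R. Capitals mark matches of the consensus on either strand, and numbers after a gene name count its windows in the direction of transcription.
NFKB1, window 1, chr4:102501109-102501408, plus strand: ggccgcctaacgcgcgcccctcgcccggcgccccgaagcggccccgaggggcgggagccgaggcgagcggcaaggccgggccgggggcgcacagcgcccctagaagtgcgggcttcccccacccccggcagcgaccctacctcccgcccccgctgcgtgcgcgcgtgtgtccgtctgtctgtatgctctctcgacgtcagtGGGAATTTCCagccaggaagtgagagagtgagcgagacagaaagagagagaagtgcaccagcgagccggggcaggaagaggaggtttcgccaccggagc
NFKB2, window 2, chr10:102394328-102394627, plus strand: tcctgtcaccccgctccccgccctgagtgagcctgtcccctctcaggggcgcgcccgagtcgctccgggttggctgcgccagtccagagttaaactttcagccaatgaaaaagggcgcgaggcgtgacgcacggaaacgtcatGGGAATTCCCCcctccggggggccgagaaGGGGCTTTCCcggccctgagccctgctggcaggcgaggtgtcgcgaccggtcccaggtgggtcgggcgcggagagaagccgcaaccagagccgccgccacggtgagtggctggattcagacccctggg
NFKB2, window 3, chr10:102395455-102395754, plus strand: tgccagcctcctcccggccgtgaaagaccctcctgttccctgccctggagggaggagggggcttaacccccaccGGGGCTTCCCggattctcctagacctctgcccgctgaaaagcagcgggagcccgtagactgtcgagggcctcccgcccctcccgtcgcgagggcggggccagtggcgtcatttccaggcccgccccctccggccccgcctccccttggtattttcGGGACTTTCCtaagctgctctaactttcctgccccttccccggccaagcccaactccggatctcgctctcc
NFKBIA, window 1, chr14:35404700-35404999, minus strand: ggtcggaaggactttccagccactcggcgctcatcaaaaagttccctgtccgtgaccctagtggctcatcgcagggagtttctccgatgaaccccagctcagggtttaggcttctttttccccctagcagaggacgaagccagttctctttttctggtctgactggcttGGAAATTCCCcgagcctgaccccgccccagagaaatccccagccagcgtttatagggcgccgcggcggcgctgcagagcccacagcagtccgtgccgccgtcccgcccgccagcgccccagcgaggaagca
TNFAIP3, window 1, chr6:137867009-137867308, plus strand: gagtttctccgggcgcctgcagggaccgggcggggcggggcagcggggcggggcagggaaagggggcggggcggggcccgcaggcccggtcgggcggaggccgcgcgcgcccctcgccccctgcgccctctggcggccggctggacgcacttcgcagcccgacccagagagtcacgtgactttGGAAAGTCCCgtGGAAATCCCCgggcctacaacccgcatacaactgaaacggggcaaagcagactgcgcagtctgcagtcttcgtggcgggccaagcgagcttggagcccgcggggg

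The consensus was found in 5 of the 12 windows of measured members, against 5.91% of all 35116 windows in the RefSeq table. The stricter motif was found in the same 5 windows, against 1.91% of all windows. Windows 2 and 3 of NFKB2 are among these 5. The members and the target list were named in part as known NF-kB targets. Their shares of motifs are thus a trait of the lists and not a result of these arrays. In NFKBIA 1 match lay on the opposite strand 81 to 72 bases before the start. TNFAIP3 had 2 matches on the opposite strand, 67 to 58 and 55 to 46 bases before the start, and NFKB1 had 1 match 49 to 40 bases before its first annotated start. The second NFKB2 window held 4 consensus matches, 3 of which overlap each other on the 2 strands, 107 to 97 bases before the start, and the third window held 2, the nearer of them 21 to 12 bases before the start. No match was found in the windows of RELA and TRAF1, which says only that these letters are not in these windows. Among the other lists, the consensus was in at least 1 window of all 4 other Rel and IkB family genes and of 20 of the 39 other target genes with a window, against 7.09% of all 27305 genes with a window. It was in 1 of the 20 canonical pathway kinases and adaptors, 1 of the 6 non-canonical pathway genes and 3 of the 12 other negative regulators with a window.

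**Figure D1:**
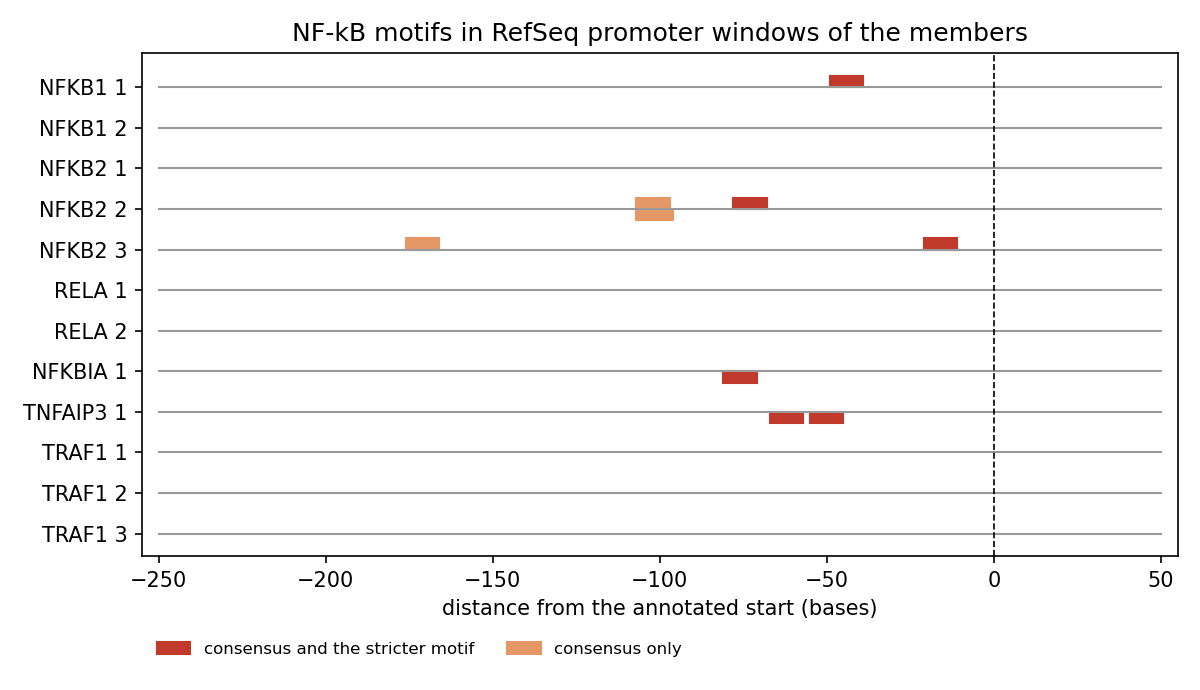
Matches of the NF-kB motif in the 12 RefSeq promoter windows of the measured members, by distance from the annotated start in bases. Blocks above a line lie on the strand of the gene and blocks below it on the opposite strand; the 5 windows with a match belong to NFKB1, NFKB2, NFKBIA and TNFAIP3.

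Over the table as a whole, genes with and without the motif had nearly the same median difference between LY294002 and DMSO. The median log2 difference between LY294002 and DMSO was -0.01 over the 591 measured genes with the consensus in a window and -0.0072 over the 5618 without it. The 2 groups were fully separate, with LY294002 higher, in 16.4% of the genes with it and in 17.2% of those without it. Among the 6 members with a window, NFKBIA and NFKB2 with the motif had the largest differences, and TNFAIP3 with 2 matches had the smallest. Between them lay TRAF1 and RELA without a match, at 0.38 and 0.14, and NFKB1 with 1 match, at 0.13.

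Levels below are probe set values on the log2 scale as deposited, and a level of 1 probe set is not set against that of another. Differences are LY294002 minus DMSO on the log2 scale with the standard error of the limma fit to all 5 arrays. In bulk RNA of this kind, fewer cells that express a gene and less RNA per cell cannot be told apart.

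Among the subunit genes, NFKB2, whose precursor is processed in the non-canonical pathway, had the largest difference. It stood at 9.95 and 9.82 on LY294002 replicates 1 and 2, against 9.33, 9.16 and 8.94 on DMSO replicates 1, 2 and 3. The lower LY294002 array lay 0.49 above the highest DMSO array, a wider gap than the 0.39 between the highest and the lowest DMSO array. The difference was 0.74 ± 0.13, with a limma adjusted p of 0.0876 and an unadjusted 95% interval of 0.40 to 1.08. DMSO replicate 1 was the highest DMSO array here, and without it the difference was 0.83. NFKB2 passed the threshold after quantile normalization (limma adjusted p = 0.0454), where 3.88% of genes passed, and after cyclic loess (0.0496), where 264 of 7713 genes did. It also passed without the dimmest 40% of probe sets (limma adjusted p = 0.0472), where 4.37% of genes passed. Without probe sets that hold identical values within a group it passed as well (limma adjusted p = 0.0097), where 10.7% of genes did.

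RELB, the partner of the processed NFKB2 product, stood at 8.23 and 8.10 on the LY294002 arrays, against 7.97, 7.84 and 7.91 on the DMSO arrays. The groups did not overlap, and the gap between them, 0.13, was about as wide as the range of the DMSO arrays, also 0.13. Its difference was 0.26 ± 0.06 (limma adjusted p = 0.15).

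NFKB1, the other subunit made as a precursor, stood at 9.14 and 9.18 on the LY294002 arrays, against 9.03, 8.99 and 9.06 on the DMSO arrays. The groups were separate on a small scale, with a difference of 0.13 ± 0.03 (limma adjusted p = 0.17). After quantile normalization it was 0.075 ± 0.066 (limma adjusted p = 0.556). The unadjusted 95% interval of NFKB1, 0.04 to 0.23, lay below that of NFKB2, which began at 0.40; the difference between the 2 genes was not tested.

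RELA, the main activating subunit of the canonical pathway, stood at 8.76 and 8.51 on the LY294002 arrays, against 8.51, 8.49 and 8.47 on the DMSO arrays. LY294002 replicate 2 had the same value as DMSO replicate 1, so the groups met, and the higher mean came from LY294002 replicate 1 alone. The difference was 0.14 ± 0.08 (limma adjusted p = 0.438), 0.27 with LY294002 replicate 2 left out and 0.02 with LY294002 replicate 1 left out. After quantile normalization, which gives every array the same distribution of values, it was 0.070 ± 0.059 (limma adjusted p = 0.544). The upper quartile of all values was also highest on LY294002 replicate 1, at 7.69 against 7.62 on LY294002 replicate 2 and 7.60 to 7.62 on the DMSO arrays.

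REL, the remaining Rel family gene, stood at 5.94 and 5.93 on the LY294002 arrays, against 6.01, 5.77 and 5.93 on the DMSO arrays. Both LY294002 arrays fell inside the range of the DMSO arrays, with a difference of 0.03 ± 0.08 (limma adjusted p = 0.83).

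**Figure D2:**
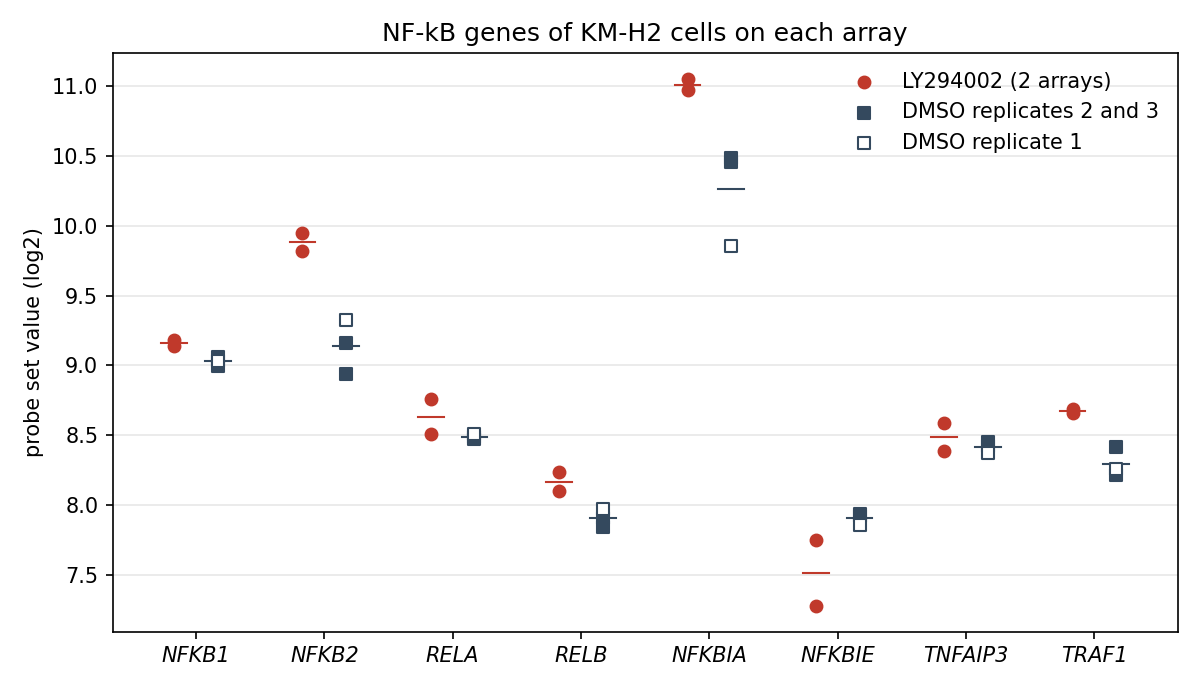
Probe set values on the log2 scale of the 8 measured members on each array, with LY294002 arrays (circles) left of DMSO arrays (squares) and lines at the group means. DMSO replicate 1 is drawn as an open square; it lies far below the other DMSO arrays for NFKBIA (9.85 against 10.46 and 10.48) and within 0.3 of their mean for the other 7 genes.

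The 2 measured IkB genes among the members went opposite ways. NFKBIA encodes IkB alpha, the inhibitor that NF-kB itself induces. Its values were 11.05 and 10.98 on the LY294002 arrays, against 9.85, 10.46 and 10.48 on DMSO replicates 1, 2 and 3. The LY294002 arrays lay above every DMSO array, by 0.49 at the least, while DMSO replicate 1 lay 0.62 below the mean of the other DMSO arrays. The difference was 0.75 ± 0.22 (limma adjusted p = 0.206, unadjusted 95% interval 0.16 to 1.33). Without DMSO replicate 1 it was smaller, 0.54, and its standard error fell to 0.04 (limma adjusted p = 0.0858). Of the alternatives tried, NFKBIA passed the threshold only without probe sets that hold identical values within a group (adjusted p = 0.0419), where 10.7% of the genes passed.

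NFKBIE encodes IkB epsilon, an inhibitor that also holds Rel dimers in the cytoplasm. Its values were 7.75 and 7.28 on LY294002 replicates 1 and 2, against 7.85, 7.92 and 7.94 on the DMSO arrays. Both LY294002 arrays lay below the DMSO arrays, but they differed from each other by 0.47, while the DMSO arrays spanned 0.08. The difference was -0.39 ± 0.15 (limma adjusted p = 0.294). With LY294002 replicate 2 left out it was -0.16, and with LY294002 replicate 1 left out it was -0.63, so that LY294002 replicate 2 carried most of it. NFKBIB, which encodes IkB beta and is not a member, stood at 7.21 and 7.20 with LY294002, against 7.23, 7.35 and 7.33 with DMSO, with a difference of -0.10 ± 0.05 (limma adjusted p = 0.394).

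TNFAIP3 encodes the ubiquitin-editing protein A20, a brake on signalling to the IkB kinase complex. It stood at 8.59 and 8.39 on the LY294002 arrays, against 8.37, 8.45 and 8.42 on the DMSO arrays. The groups overlapped, LY294002 replicate 1 being the highest array and LY294002 replicate 2 lying among the DMSO arrays. The difference was 0.07 ± 0.07 (limma adjusted p = 0.579), with an unadjusted 95% interval of -0.11 to 0.26. Its sign turned without LY294002 replicate 1, to -0.03, and it was 0.17 without LY294002 replicate 2. It was 0.0022 after quantile normalization and 0.037 after cyclic loess.

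TRAF1 encodes a signalling adaptor of TNF receptors that is itself induced by NF-kB. It stood at 8.69 and 8.66 on the LY294002 arrays, against 8.26, 8.42 and 8.21 on the DMSO arrays. The LY294002 arrays lay 0.03 apart and 0.25 above the highest DMSO array. The difference was 0.38 ± 0.07 (limma adjusted p = 0.0994). TRAF1 passed the threshold without probe sets that hold identical values within a group (limma adjusted p = 0.0248), where 10.7% of the genes passed.

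**Figure D3:**
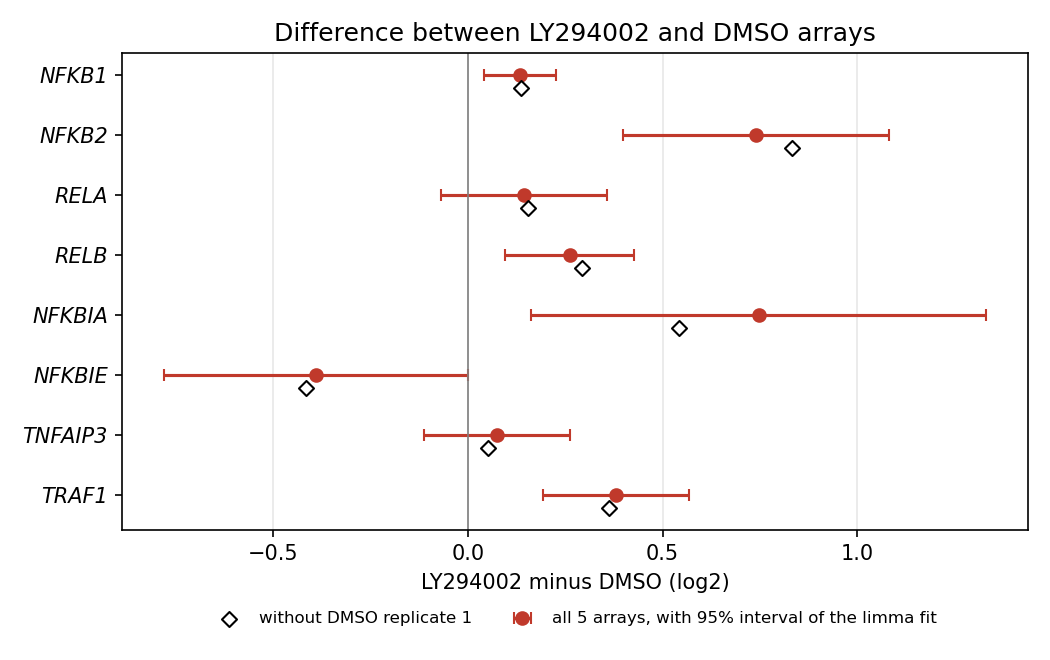
Log2 differences between LY294002 and DMSO for the 8 measured members, as points with unadjusted 95% intervals from the limma fit to 5 arrays; diamonds give the difference without DMSO replicate 1. The intervals of NFKB2 (0.40 to 1.08), NFKBIA, TRAF1, RELB and NFKB1 lie above 0, and leaving out DMSO replicate 1 lowers NFKBIA to 0.54 and raises NFKB2 to 0.83.

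Taken as a list, 7 of the 8 members had a log2 difference above 0, as did 44.1% of all genes, and their median difference was 0.20, against -0.01 over all genes. The LY294002 arrays were both above every DMSO array for 5 members (NFKB1, NFKB2, RELB, NFKBIA and TRAF1), a pattern found in 16.2% of all genes, and below them for 1 (NFKBIE), a pattern found in 13.4%. Bright probe sets differed more between the groups: among the 1753 genes whose mean value reached that of the dimmest member the median size of a difference was 0.15, against 0.0764 over all genes. In those 1753 genes the share with both LY294002 arrays above the DMSO arrays was 30.1% and the median difference 0.04, and 33.5% had an unadjusted p under 0.05, 21.2% higher. Because the members were chosen with results of these arrays known, these counts are a description. The median over the members, relative to each gene's DMSO mean, was 0.30 and 0.17 on LY294002 replicates 1 and 2, against -0.02, 0.02 and 0.0046 on DMSO replicates 1, 2 and 3.

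DMSO replicate 1 had no common direction on the members. Relative to the mean of the other DMSO arrays it differed by -0.62 for NFKBIA and by 0.28 for NFKB2. The median size of that distance was 0.071 over the members, against 0.0562 over all genes and 0.096 over the 1753 bright genes. DMSO replicate 1 was the lowest DMSO array for 3 members (NFKBIA, NFKBIE and TNFAIP3) and the highest for 3 (NFKB2, RELA and RELB). Over all genes it was the lowest in 33.6% and the highest in 25%. Among the 43 other NF-kB target genes it was the lowest for 24, or 55.8%, against 42.4% of the bright genes, though the list also holds dimmer genes. NFKBIA was the 1 member for which it lay more than 0.3 below both other DMSO arrays, as it did for 1.34% of all genes and for 3.31% of those at least as bright as the dimmest member. The size of 0.3 was chosen after the values were seen. Of the other NF-kB target genes 7 of 43 met it, namely BCL2A1, CCR7, CXCL10, IER3, IL2RA, MMP9 and TNF, and among the 29 other pathway genes TNIP1 did. TNF, the cytokine gene, stood at 8.62 and 8.68 with LY294002, against 7.61, 8.18 and 8.13 on DMSO replicates 1, 2 and 3. BCL2A1, an anti-apoptotic gene of the BCL2 family, stood at 9.66 and 9.60 with LY294002, against 9.07, 9.60 and 9.60 with DMSO, so that without DMSO replicate 1 its difference was 0.03 in place of 0.20.

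The genes with array profiles nearest to NFKBIA, by the root mean square difference of values relative to each gene's own mean over the 5 arrays, were PDE4B (0.0522), KLF6 (0.0657) and TNF (0.066). All 3 have their lowest value on DMSO replicate 1 and both LY294002 arrays above the DMSO arrays. They were chosen by these same values, so this likeness is not a separate result. PDE4B, a phosphodiesterase gene, stood at 9.75 and 9.57 with LY294002, against 8.46, 9.16 and 9.06 with DMSO. The genes nearest to NFKB2 were PAFAH1B1 (0.0368), APLP2 (0.0536) and SRSF5 (0.0565). Their highest DMSO value is on replicate 1 and their lowest on replicate 3, as in NFKB2, which likewise follows from the choice. PAFAH1B1 stood at 8.05 and 7.89 with LY294002, against 7.38, 7.31 and 7.08 with DMSO.

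Around the members, 0 of the 29 measured pathway genes passed limma's threshold, while 6 had an unadjusted p under 0.05, 5 higher and 1 lower with LY294002. These 6 are 20.7% of the list, against 17.1% of all genes and 33.5% of the genes at least as bright as the dimmest member. The list also holds genes dimmer than every member, such as REL and CHUK. The bright set is therefore not a like background for it or for the lists within it. Both LY294002 arrays lay above the DMSO arrays for 10 of the 29 and below them for 4, that is 34.5% and 13.8%, against 16.2% and 13.4% of all genes. Of the 7 non-canonical pathway genes, 0 passed and 4 had both LY294002 arrays above the DMSO arrays, where 16.2% of all genes and 30.1% of the bright ones did. MAP3K14, the gene of the kinase NIK, stood at 7.41 and 7.34 with LY294002, against 6.81, 6.83 and 6.98 with DMSO, and its difference of 0.50 ± 0.06 came nearest to the threshold among the pathway genes (limma adjusted p = 0.0576). BIRC2, a ubiquitin ligase gene of the complex that keeps NIK low, stood at 9.21 and 9.00 with LY294002, against 8.35, 8.56 and 8.45 with DMSO (0.65 ± 0.09, limma adjusted p = 0.0723). For TRAF3, the adaptor of that complex, the LY294002 arrays were 0.29 apart, at 7.71 and 7.43, against 7.27, 7.39 and 7.38 with DMSO (0.22 ± 0.10, limma adjusted p = 0.377). CD40, a receptor that feeds the pathway, overlapped between the groups (-0.13 ± 0.09, limma adjusted p = 0.467).

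Of the 15 canonical pathway kinases and adaptors, 0 passed, 2 had both LY294002 arrays above the DMSO arrays and 3 below, 13.3% and 20% of the list, near the 16.2% and 13.4% of all genes. MYD88, the adaptor of Toll-like and interleukin receptors, stood at 8.87 and 8.71 with LY294002, against 9.24, 9.28 and 9.12 with DMSO (-0.43 ± 0.07, limma adjusted p = 0.0877). IRAK1, the kinase that acts next to it, was at -0.27 ± 0.11 (0.343), and MAP3K7, the kinase TAK1 that activates the IkB kinases, at 0.40 ± 0.15 (0.285). The IkB kinase genes themselves overlapped between the groups, with CHUK at 0.12 ± 0.15 (limma adjusted p = 0.666) and IKBKG, the scaffold of the complex, at 0.02 ± 0.05 (0.807). IKBKB was not analysed here. Of the 5 other negative regulators 0 passed, and 4 had both LY294002 arrays above the DMSO arrays, by 0.017 at the least. That pattern was found in 16.2% of all genes and in 30.1% of the genes at least as bright as the dimmest member, which TANK, for 1, is not. The median of these 5 regulators was 0.21, and 0.087 without DMSO replicate 1. TANK, a binder of TRAF proteins, differed by 0.45 ± 0.08 (limma adjusted p = 0.0897), TAX1BP1, a partner of A20, by 0.37 ± 0.07 (0.101), and TNIP1, another partner of A20, by 0.21 ± 0.14 (0.461), or 0.08 without DMSO replicate 1.

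**Figure D4:**
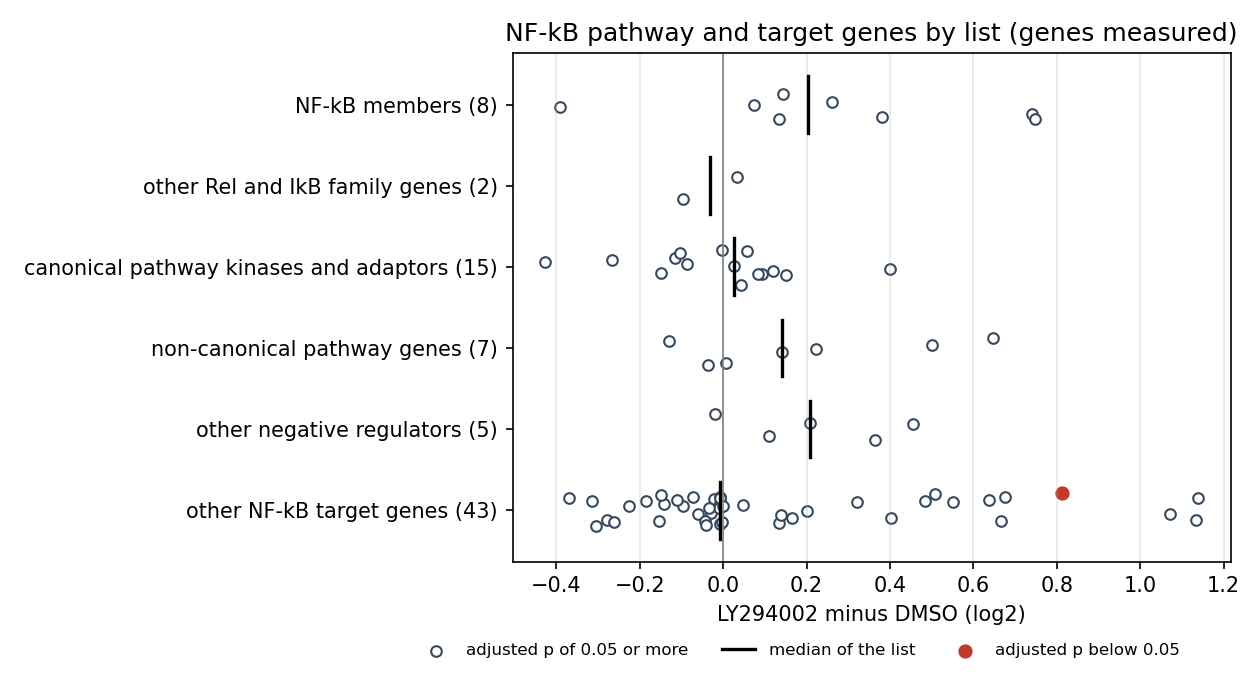
Log2 differences between LY294002 and DMSO for each measured gene of the members and of 5 further lists, with the number of genes measured in brackets and a bar at each median. The 1 filled point, past the limma threshold, is GADD45B at 0.81; the medians run from -0.03 for the other Rel and IkB genes to 0.21 for the other negative regulators, which is 0.087 without DMSO replicate 1.

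Of the 43 other NF-kB target genes, 1 passed the threshold higher with LY294002 and 0 lower, where 0.609% and 0.298% of all genes did. At an unadjusted limma p under 0.05 there were 15, with 13 higher and 2 lower. These 15 are 34.9% of the list, against 17.1% of all genes and 33.5% of the genes at least as bright as the dimmest member. The list also holds genes dimmer than every member, such as PLAU and MMP9, so that bright set is not a like background. The share among the bright genes of the list was not worked out. GADD45B, a gene of the stress response, rose 1.76-fold: it stood at 9.04 and 8.88 with LY294002, against 8.04, 8.26 and 8.15 with DMSO (0.81 ± 0.09, limma adjusted p = 0.0439). The call was lost when any 1 array was left out, at adjusted p-values of 0.0802 to 0.215. The list's median was -0.0074 and its mean 0.14, with 25 of the 43 differences under 0 and 1, that of PLAU, at 0. These signs include dim genes: 28 or 29 of the 43 lay above the median of an array, and 10 held identical values within a group. For 13 targets both LY294002 arrays lay above the DMSO arrays and for 5 below, 30.2% and 11.6% of the list. Over all genes these shares were 16.2% and 13.4%. Of the genes at least as bright as the dimmest member, 30.1% had both LY294002 arrays above, but that set again leaves out dim genes, which this list holds. The largest differences did not pass, namely those of the chemokine receptor gene CCR7 (1.14 ± 0.18, limma adjusted p = 0.0776), of IL2RA, the alpha chain of the interleukin 2 receptor (1.13 ± 0.15, 0.0599), and of IER3, an early response gene (1.07 ± 0.16, 0.0758).

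Markers of Hodgkin cells were checked against the label: the 7 listed genes were all measured and 6 lay above the median of every array. Among them 1 passed the threshold: IRF4, a transcription factor gene of the B cell lineage, rose 1.58-fold, at 8.90 and 8.87 with LY294002, against 8.15, 8.35 and 8.18 with DMSO (0.66 ± 0.07, limma adjusted p = 0.0473). That call was also lost when any 1 array was left out, at adjusted p-values of 0.0875 to 0.215. CD70, a ligand of the TNF family, differed by 0.52 ± 0.07 (0.0576), and 5 of the 7 differences were below 0. Among these, TNFRSF8, the gene of the Hodgkin marker CD30, stood at 7.71 and 7.39 with LY294002, against 8.13, 8.49 and 8.09 with DMSO (-0.68 ± 0.17, limma adjusted p = 0.157). The 6 measured B cell markers were partly low, with 3 above the array medians, and their mean was 7.47 and 7.46 on the LY294002 arrays, against 7.67, 7.70 and 7.67 on the DMSO arrays. Of these, MS4A1, the gene of the B cell antigen CD20, stood at 9.59 and 9.25 with LY294002, against 10.57, 10.43 and 10.24 with DMSO (-0.999 ± 0.147, limma adjusted p = 0.073). None of the 4 myeloid markers lay above an array median, and of the 7 epithelial and fibroblast markers 0 to 3 did. HBB, the 1 erythroid marker measured, lay between 7.90 and 8.13 on the 5 arrays, above the median of each. All 6 T cell markers lay above the array medians, with a mean of 7.47 and 7.60 on the LY294002 arrays, against 7.69 to 7.70 on the DMSO arrays. Because HBB and the T cell markers also lay above the medians, these levels do not single out the labelled cell type. The means of the B cell and T cell lists were lower with LY294002 where NFKB2 and NFKBIA were higher, and their part in the results was not tested. In the B cell list MS4A1 had by far the largest difference, and the others lay between -0.15 and 0.06. The median level of that list overlapped between the groups, at 6.78 and 6.90 with LY294002, against 6.84, 6.89 and 6.81 with DMSO.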

How the data were processed

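RNA from 5 samples labelled KMH2 was hybridised to Affymetrix arrays, per the labels' protocols. The deposited table holds log2 probe set values, for which the authors used affy, an R package, as the submitters' processing notes record; for its version, background correction, summary method and normalization, nothing is given in the sources used here. Array medians were 6.26 and 6.29 on LY294002 replicates 1 and 2 and 6.27 on each DMSO array, so the values were used as deposited. Direction was taken from the labels, and values are on a log2 scale by their range.

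Of 8793 probe sets, 47 controls were left out and 8746 fitted. The platform's annotation gave 1 symbol to 7840 of the fitted probe sets, several to 388 and none to 518, and the probe set with the highest mean stood for each of 7713 genes. Probe sets of the kind named _s_at, which include those of NFKB2, RELA, NFKBIA and TNFAIP3, can bind several transcripts. LY294002 was compared with DMSO by limma 3.58.1 (lmFit and eBayes, R 4.3.3) with group as the only term, 3 residual degrees of freedom and two-sided Benjamini-Hochberg adjustment over all fitted probe sets. The fit was tested on simulated data. Motifs and figures were made with Python 3.11.15 and matplotlib 3.10.9. For arrays, their number limits the precision.

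The members and lists were chosen with earlier results of these data known. The named genes are all measured members, each gene of a pathway or target list past the threshold, the 3 largest differences of each such list, a few genes fixed by name (CYLD, on that list, was not analysed here), and the 3 nearest profiles to NFKB2 and NFKBIA. Genes outside that rule, which are TNF, BCL2A1, CXCL10, MMP9, PLAU, HBB, TNFRSF8, IRF4, CD70 and MS4A1, were named after their values were seen. Alternatives were 3 normalizations, 2 filters, 2 variance settings, array weights, a replicate block, averaging the probe sets of a gene, and each array left out.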

Additional observations from a re-analysis of the deposited data

How the results depend on the processing

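The count of 0 members past the limma threshold became 1 (NFKB2) with quantile normalization, with cyclic loess or without the dimmest 40% of probe sets, and 3 (NFKB2, NFKBIA and TRAF1) without probe sets with identical values within a group, a filter that removes probe sets with a low spread. It stayed 0 in the other alternatives, including each array left out. Over the whole table the 70 genes became 299 after quantile normalization, 264 after cyclic loess, 147 after median centring, 203 without dim probe sets, 510 without identical values, 17 with array weights, 1 without variance moderation and 0 with the replicate block, and 0 to 4 with 1 array left out; in these last fits, unadjusted p-values under 0.05 numbered 946 to 2085. The 0 pathway genes became 5 after quantile normalization, 4 after cyclic loess, 1 after median centring, 2 without dim probe sets and 5 without identical values. The 1 target gene became 7, 7, 5, 6 and 10 in the same 5 settings, 2 with the intensity trend and the robust prior, and 0 with array weights, the replicate block, no variance moderation or any 1 array left out. The cause of these shifts was not tested. Identical values within a group were held by 2942 of the 7713 genes (38.1%). Leaving such probe sets out selects on the spread within groups that the limma test also uses. The calls it gave are therefore not a separate check.

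The median difference of the members, 0.20, was 0.14 after quantile normalization and 0.17 after cyclic loess, and 0.17 to 0.30 with 1 array left out. The median of DMSO replicate 1 relative to the other DMSO arrays was -0.02 over the members and turned to 0.019 after quantile normalization and 0.0057 after cyclic loess. TNFAIP3 changed sign without LY294002 replicate 1 (-0.026), and the other 7 members kept theirs in all 15 alternatives. The replicate numbers are shared by 2 pairs only and the labels give them no meaning: same-numbered arrays had deviations correlated at 0.0021 (number 1) and -0.21 (number 2). With 2 LY294002 arrays, their deviations are mirror images of each other, so these values cannot show a pairing. With the block the median of the members was 0.20 and 0 members, 0 pathway genes and 0 targets passed.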

Other observations

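The probe set annotated jointly to BCL3, an atypical IkB protein gene, and to the microRNA gene MIR8085 was not assigned to either. It stood at 6.96 and 6.61 on the LY294002 arrays, against 6.48, 6.50 and 6.20 on the DMSO arrays, with a difference of 0.39 ± 0.15 (limma adjusted p = 0.295). The groups were separate, with LY294002 replicate 2 just above the highest DMSO array.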
